A study of Mus musculus with 3 samples.

Results

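The 7 globin genes that code for the embryonic and adult haemoglobin chains of the mouse were followed in single cells of early embryos. They were *Hbb-bh1*, *Hbb-y* and *Hba-x* (embryonic) and *Hba-a1*, *Hba-a2*, *Hbb-bs* and *Hbb-bt* (adult), taken by name from the 31054 features of the count tables. The study dissociated 3 wildtype mouse embryos of mixed C57BL/6 and 129 SvEv background at E8.0, about the stage when the first somites form, with extraembryonic tissue removed. Each embryo gave 1 single-cell 3′ RNA library, and all 3 were untreated and of the same genotype, so the design holds no treatment and the embryo is the replicate (embryos 1, 2 and 3 are replicates 1, 2 and 3). An embryo and its library cannot be told apart. Expression was counted as UMIs, unique molecular identifiers that mark 1 captured RNA molecule each. Of 23533 barcodes, 22168 cells passed quality control. Cells with UMIs of *Amn* and *Cubn*, markers of extraembryonic endoderm, were still found (296, 1173 and 954 in embryos 1, 2 and 3).

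Haemoglobin is built from alpha-like and beta-like globin chains, each holding a haem group that carries oxygen. The first red cells of the mouse form in the blood islands of the yolk sac, circulate from there, and use embryonic chains: zeta (*Hba-x*) pairs as the alpha-like chain with the beta-like chains epsilon-y (*Hbb-y*) and beta-h1 (*Hbb-bh1*). Adult chains come from *Hba-a1*, *Hba-a2*, *Hbb-bs* and *Hbb-bt*. The transcription factors GATA1 and KLF1 drive both sets, in the beta-like cluster together with its distant locus control region.

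The genes lie in 2 clusters, given here with GENCODE vM21 annotation on GRCm38 (mm10). The alpha-like cluster is on the plus strand of chromosome 11, with *Hba-x* (ENSMUSG00000055609) at chr11:32276400-32278116, *Hba-a1* (ENSMUSG00000069919) at chr11:32283511-32284465 and *Hba-a2* (ENSMUSG00000069917) at chr11:32296489-32297298. The beta-like cluster is on the minus strand of chromosome 7, with *Hbb-y* (ENSMUSG00000052187) at chr7:103851749-103853216, *Hbb-bh1* (ENSMUSG00000052217) at chr7:103841637-103843164, *Hbb-bs* (ENSMUSG00000052305) at chr7:103826534-103828096 and *Hbb-bt* (ENSMUSG00000073940) at chr7:103812524-103813996. Each gene has 3 exons, and in both clusters the embryonic genes stand before the adult genes in the direction of transcription.

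The promoter of 1 embryonic and 1 adult gene of each cluster is shown to set the 2 kinds of gene beside each other, from 250 bases before the start to 50 after it (RefSeq, GRCm38.p6), 5′ to 3′ on the gene's own strand. Capitals mark 3 short motifs on either strand. The letters CACCC (on the other strand GGGTG) are the core of the sites that KLF factors bind. The letters GATAA (on the other strand TTATC) belong to the sites of GATA factors. The letters CCAAT (on the other strand ATTGG) form the CCAAT box, and no match of one motif overlapped a match of another. The *Hba-x* window is chr11:32276350-32276649, that of *Hba-a1* is chr11:32283422-32283721, that of *Hbb-y* is chr7:103853158-103853457 and that of *Hbb-bs* is chr7:103827879-103828178. Positions are counted from the RefSeq start, which lies inside the GENCODE gene given above. Marked motifs of *Hba-x*, *Hba-a1* and *Hbb-bs* therefore lie at least in part within the GENCODE gene coordinates.
*Hba-x*: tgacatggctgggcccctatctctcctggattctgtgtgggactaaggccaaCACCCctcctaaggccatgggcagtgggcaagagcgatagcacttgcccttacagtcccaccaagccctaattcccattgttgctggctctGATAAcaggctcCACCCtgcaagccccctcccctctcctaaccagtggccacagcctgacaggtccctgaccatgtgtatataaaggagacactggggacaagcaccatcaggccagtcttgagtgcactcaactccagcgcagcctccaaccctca
*Hba-a1*: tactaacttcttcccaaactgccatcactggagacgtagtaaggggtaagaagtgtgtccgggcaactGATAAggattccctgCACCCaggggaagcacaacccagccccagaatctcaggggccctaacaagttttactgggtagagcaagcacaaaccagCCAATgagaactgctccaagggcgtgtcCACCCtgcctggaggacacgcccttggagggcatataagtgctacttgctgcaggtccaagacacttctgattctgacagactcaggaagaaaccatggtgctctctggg
*Hbb-y*: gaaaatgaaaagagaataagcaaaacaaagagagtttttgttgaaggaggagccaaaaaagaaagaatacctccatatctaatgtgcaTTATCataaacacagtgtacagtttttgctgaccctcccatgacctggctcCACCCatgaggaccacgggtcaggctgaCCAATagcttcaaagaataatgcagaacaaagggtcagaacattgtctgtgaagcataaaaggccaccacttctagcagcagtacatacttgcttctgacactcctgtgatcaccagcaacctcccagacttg
*Hbb-bs*: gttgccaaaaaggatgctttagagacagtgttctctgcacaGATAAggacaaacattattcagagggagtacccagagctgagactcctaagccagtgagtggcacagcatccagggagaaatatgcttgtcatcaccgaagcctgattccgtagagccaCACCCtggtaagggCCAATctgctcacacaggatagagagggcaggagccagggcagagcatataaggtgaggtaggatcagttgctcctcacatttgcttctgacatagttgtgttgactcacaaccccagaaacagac

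An entry was at hand for 6 of the 7 genes. All 6 windows held CACCC and GATAA on either strand, a pair found in 12.6% of 27025 mouse promoters of the same length. CACCC alone stood in 56.7% of them, GATAA in 25.8% and CCAAT in 37.9%. CCAAT was matched in 5 of the 6 windows, at position -88 from the start in *Hba-a1*, -83 in *Hbb-y* and -76 in *Hbb-bs*, and had no match in the *Hba-x* window. The nearest CACCC lay at -95 in *Hba-x*, -60 in *Hba-a1*, -111 in *Hbb-y* and -90 in *Hbb-bs*. The windows of *Hba-a1* and *Hba-a2* were identical at 98.0% of aligned positions and those of *Hbb-bs* and *Hbb-bt* at 72.7%. *Hba-x* and *Hba-a1*, by contrast, were identical at 52.6%, and *Hbb-y* and *Hbb-bs* at 55.2%. These matches describe the letters in the windows and are not evidence of binding.

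The near-identity reaches into the transcripts and touches how the adult genes can be counted. Of 510 windows of 91 bases in the last 600 bases of *Hba-a1*, 357 (70%) occurred without mismatch in *Hba-a2*, and 340 of 510 (66.7%) of those in *Hbb-bs* occurred in *Hbb-bt*. No such window was shared between *Hba-x* and *Hba-a1*, between *Hbb-y* and *Hbb-bs* or between *Hbb-bh1* and *Hbb-y*. The embryonic genes were thus separable by these windows in the pairs compared, and their other pairs were not compared. The split within each adult pair is uncertain and the level of each adult gene may be too low.

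Erythroid cells were taken as cells with at least 1 UMI of *Gata1* and of *Klf1*, a gate that uses no globin. It found 2 cells in embryo 1, 707 in embryo 2 and 292 in embryo 3, which were 0.0326%, 8.71% and 3.69% of the cells. No erythroid barcode was shared between libraries, and 14 to 20 barcodes of all quality-controlled cells were shared by a pair of libraries. Markers that the gate did not use went with it: *Cited4* was seen in 98.7% and 99.3% of the erythroid cells of embryos 2 and 3 and in 6.38% and 4.06% of their cells without either gate gene. *Alas2*, which starts haem synthesis in red cells, was seen in 53.9% and 48.3% against 1.23% and 0.954%. *Slc4a1*, the anion exchanger of later red cells, was seen in 0.707% and 0.342% of the erythroid cells and *Hemgn* in 8.77% and 8.56%. *Itga2b*, a gene of megakaryocytes and of early blood progenitors, was seen in 55.2% and 49.7% of them, *Pf4* of megakaryocytes in 0.990% and 1.71%, and *Tyrobp* of myeloid cells in none (0 of 707 and 0 of 292, which allow up to 0.424% and 1.03% of cells with a UMI and set no limit on cells that express the gene). Median depth was 15630 and 17124 UMIs in the erythroid cells of embryos 2 and 3, against 14267 and 16108 in the cells without either gate gene.

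The erythroid cells held 187 globin UMIs each on average in embryo 2 and 68.6 in embryo 3, with a median of 127 and 39. The highest cell held 1177 and 497, and 705 of 707 and 269 of 292 cells held at least 1. As a share of a cell's UMIs, the globin share, the median was 0.772% in embryo 2 and 0.233% in embryo 3 and the highest 6.42% and 2.76%. The cells of embryo 2 thus held more globin RNA than those of embryo 3 at a lower median depth. With 1 library per embryo, that difference has no test. In embryo 1 the 2 gated cells held 3 UMIs of *Hbb-bh1* in 1 of them and no UMI of the other 6 genes, so embryo 1 enters no account of the erythroid cells.

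*Hbb-bh1*, the beta-like chain beta-h1, was the most abundant globin in both embryos. It gave 93.7 UMIs per cell in embryo 2 (exact Poisson 95% interval 93.0 to 94.4) and 42.9 in embryo 3 (42.2 to 43.7), and was detected in 98.3% and 88.4% of erythroid cells. Intervals here and in what follows cover counting error only. A UMI is 1 tag at the 3′ end of a molecule, so levels of different genes are compared without dividing by length.

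*Hba-x*, the zeta chain, came second. It gave 80.0 UMIs per cell in embryo 2 and 19.3 in embryo 3, with medians of 41 and 2 and a highest cell of 570 and 271. It was detected in 91.2% of the cells of embryo 2 and in 57.5% of those of embryo 3, where the distribution was the more uneven. The ratio of *Hbb-bh1* to *Hba-x* UMIs was 1.17 in embryo 2 and 2.23 in embryo 3.

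*Hbb-y*, the epsilon-y chain, was far below the other embryonic genes, with 2.75 and 1.94 UMIs per cell and a median of 0 in both embryos. It was detected in 32.2% and 28.8% of cells, yet the highest cell held 190 and 70 UMIs. It made up 1.47% and 2.83% of globin UMIs, against 50.2% and 62.6% for *Hbb-bh1* and 42.8% and 28.1% for *Hba-x*.

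The adult genes were low and led by *Hba-a1*, an adult alpha chain gene. It gave 7.00 and 2.71 UMIs per cell and was detected in 81.6% and 49.0% of cells. *Hbb-bs*, an adult beta chain gene, gave 1.88 and 1.13 UMIs per cell. *Hba-a2* gave 0.911 and 0.336 and *Hbb-bt* 0.591 and 0.308. Together the 4 adult genes made up 5.56% of globin UMIs in embryo 2 (exact binomial 95% interval 5.44 to 5.68) and 6.53% in embryo 3 (6.19 to 6.88). These shares may be too low, as the level of each adult gene may be, and the intervals do not cover that.

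Both embryos gave the same order of mean level, *Hbb-bh1*, *Hba-x*, *Hba-a1*, *Hbb-y*, *Hbb-bs*, *Hba-a2* and *Hbb-bt*, and within an embryo the counting intervals of the means of neighbours in this order did not overlap for any pair but *Hba-a2* and *Hbb-bt* of embryo 3 (0.272 to 0.409 and 0.248 to 0.379). Across embryos the ranges of *Hbb-bh1* and *Hba-x* overlapped, as did those of *Hba-a1* and *Hbb-y* and those of *Hba-a2* and *Hbb-bt*, although within each embryo the order was the same. The places of the adult genes in this order carry the limit on near-identical pairs, which the intervals do not cover. Detection did not follow the order throughout. *Hba-a2* was seen in 43.1% of the erythroid cells of embryo 2 with 0.911 UMIs per cell, whereas *Hbb-y* was seen in 32.2% with 2.75 UMIs per cell. The beta-like genes together made up 53.0% and 67.5% of globin UMIs. In cells without *Gata1* and *Klf1* UMIs the share with a UMI was 28.4% and 7.36% for *Hbb-bh1*, 24.2% and 2.97% for *Hba-x*, 5.28% and 1.42% for *Hba-a1* and 1.24% and 0.436% for *Hbb-y*. After each cell was thinned to 5000 UMIs, *Hbb-bh1* was seen in 96.0% and 82.2% of erythroid cells and 9.62% and 2.17% of the cells without either gate gene.

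**Figure D1:**
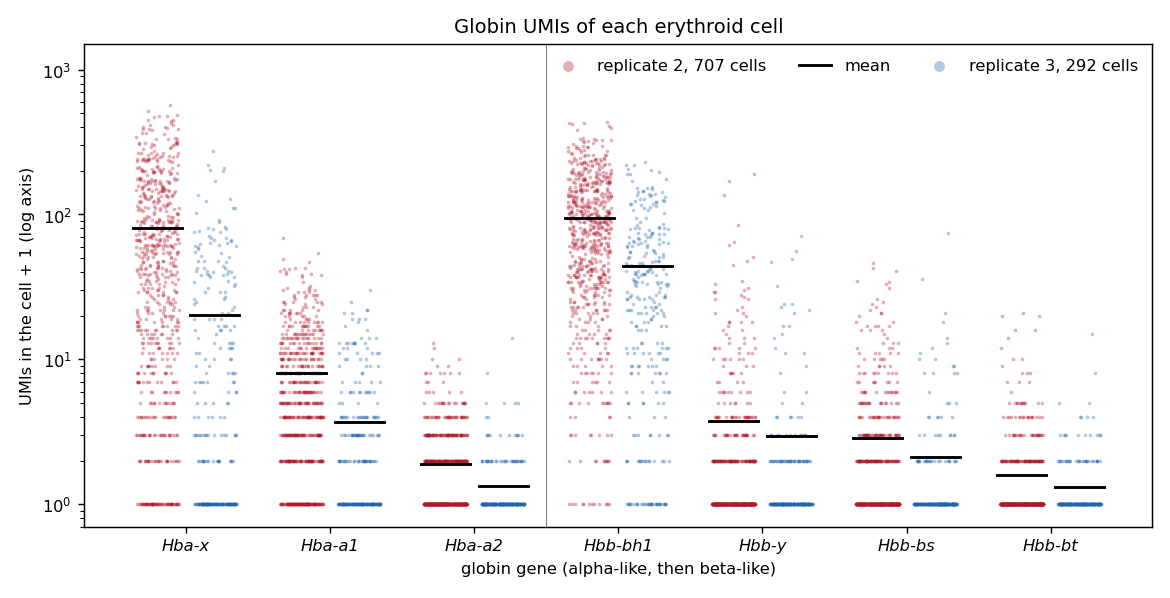
UMIs of each globin (log axis) in each erythroid cell of embryos 2 and 3. *Hbb-bh1* and *Hba-x* lie highest, at means of 93.7 and 80.0 UMIs per cell in embryo 2 and 42.9 and 19.3 in embryo 3, while *Hbb-y* and *Hbb-bs* are at 0 in most cells and reach 190 and 74 in a few.

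Of the other members of the globin family, *Hbq1b* of the theta genes and *Hbb-bh2* were low but called higher in erythroid cells, in the comparison described further on. The erythroid cells of embryos 2 and 3 held 63 and 9 UMIs of *Hbq1b*, 54 and 5 of *Hbb-bh2* and 4 and 0 of *Hbq1a*. *Hbq1b* stood at 5.21 and 1.58 CPM (counts per 1000000 UMIs) against 0.0159 and 0.0131 in cells without either gate gene, and *Hbb-bh2* at 4.47 and 0.878 against the same values (edgeR adjusted p = 4.51e-05 and 9.96e-05). The other cells held 2 UMIs of each of these genes per embryo, so no fold is given. *Hbq1b* was seen in 8.35% and 2.74% of erythroid cells. *Cygb*, cytoglobin, gave 1 UMI in each embryo. *Mb*, the myoglobin gene of muscle, and *Ngb*, the neuroglobin gene, gave 0, which allows up to 0.248 CPM in embryo 2 and 0.527 in embryo 3.

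The low beta-like genes were concentrated in few cells. The tenth of cells highest in a gene held 86.5% and 88.5% of its UMIs for *Hbb-y*, 71.4% and 89.7% for *Hbb-bs* and 79.4% and 81.1% for *Hbb-bt* in embryos 2 and 3. For *Hbb-bh1* that share was 29.5% and 37.6%, for *Hba-x* 40.3% and 58.4% and for *Hba-a1* 39.0% and 56.3%. *Hba-a2*, at a lower level than *Hbb-y* and *Hbb-bs*, had 49.2% and 76.5%.

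Cells with at least 5 UMIs, a limit chosen after the values were seen, numbered 72 and 21 for *Hbb-y* and 78 and 17 for *Hbb-bs* in embryos 2 and 3. Both genes were at 5 or more in 11 of the 78 *Hbb-bs* cells of embryo 2 and 3 of the 17 of embryo 3. Over all erythroid cells *Hbb-y* was at 5 or more in 10.2% and 7.19%. The overlap was thus not below that share, and it was not tested. The cut itself fixes the direction of any contrast in *Hbb-y* and favours cells with more globin UMIs, so the values that follow are descriptions. The 72 cells of embryo 2 held 23.4 *Hbb-y* UMIs each, against 0.406 in the other 635 cells. In embryo 3 the 21 cells held 22.6 and the other 271 held 0.343. These cells were also high in total globin, with a median share of 1.85% against 0.741% in embryo 2 and 0.549% against 0.209% in embryo 3, and *Hbb-y* was 6.91% and 14.5% of their globin UMIs. Their median depth was 16127 and 19264 UMIs, against 15577 and 17006 in the rest.

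Across cells *Hbb-bh1*, *Hba-x* and *Hba-a1* went together, and the low beta-like genes went little with each other. Spearman's rho of UMIs over the 707 and 292 cells was 0.764 and 0.566 for *Hbb-bh1* and *Hba-x* and 0.784 and 0.778 for *Hba-x* and *Hba-a1*. The low *Hba-a2* gave 0.603 and 0.520 with *Hba-a1* and 0.525 and 0.468 with *Hba-x*. The correlation was 0.0354 and 0.0787 for *Hbb-y* and *Hbb-bs* and 0.0975 and 0.118 for *Hbb-bs* and *Hbb-bt*. The cells of an embryo share a library, and rho is bounded by the many cells at 0 for the low genes, so these values are descriptions.

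The sums of erythroid cells were then compared with sums of cells with no UMI of either gate gene in embryos 2 and 3. All 7 globins were higher in erythroid cells by edgeR's quasi-likelihood test with Benjamini-Hochberg adjustment over 15671 genes, of which 24.9% were called higher and 31.0% lower (28.3% and 33.3% with the embryo as a block, with all 7 still called). Their median log2 fold change was 7.06, against -0.16 over all genes tested. The gate genes were not read as results. The embryo is the replicate, with 2 on each side, so the p-values measure the spread between 2 embryos.

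The embryonic genes had the largest differences with both embryos together, by a margin that was small in embryo 2 alone. *Hbb-y* stood at 161 and 99.6 CPM in the erythroid cells of embryos 2 and 3 and 0.772 and 0.275 in the other cells, a log2 fold change of 8.34 ± 0.43 (SE; edgeR adjusted p = 5.01e-06). *Hbb-bh1* stood at 5482 and 2202 against 29.7 and 4.65 CPM, a log2 fold change of 8.15 ± 0.94 (edgeR adjusted p = 1.83e-04). *Hba-x* stood at 4679 and 988 against 25.5 and 1.74 CPM, a log2 fold change of 8.06 ± 1.32 (edgeR adjusted p = 0.00114). *Hba-x* had the widest error of the 7, and the 2 embryos differed most in it on both sides.

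The adult genes were called with smaller differences. *Hba-a1* stood at 409 and 139 against 3.47 and 1.80 CPM, a log2 fold change of 7.06 ± 0.58 (edgeR adjusted p = 3.47e-05). The log2 fold change was 5.89 ± 0.53 for *Hbb-bt*, 5.49 ± 0.53 for *Hba-a2* and 5.02 ± 0.80 for *Hbb-bs* (edgeR adjusted p = 5.27e-05, 6.98e-05 and 9.99e-04). For *Hbb-bs* the other cells of embryo 3 stood at 5.85 CPM, against 0.628 in embryo 2, and a few cells set that value. Without other cells of 10 or more globin UMIs, an alternative added after the data were seen, *Hbb-bs* had a log2 fold change of 6.95, *Hba-a2* 6.67 and *Hbb-bt* 7.42, and the embryonic genes 8.50 to 8.71. With embryo 3 alone the fold change of *Hbb-bs* was 3.57, of *Hba-a2* 3.94 and of *Hbb-bt* 4.50, and with embryo 2 alone 7.81, 6.61 and 7.48, with no test. For *Hba-a1* it was 6.52 and 7.24. *Hbb-bh1*, *Hba-x* and *Hbb-y* had 9.14, 9.41 and 8.75 with embryo 3 alone. With embryo 2 alone they had 7.89, 7.88 and 8.06, close to the 7.81 of *Hbb-bs*.

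Genes of haem, iron and the red cell membrane were higher in erythroid cells too. All 10 tested genes of haem synthesis and assembly were higher (median log2 fold change 2.07). *Alas2* had a log2 fold change of 6.56, *Blvrb*, a biliverdin reductase, 3.82, *Cpox* 2.94 and *Uros* 2.68, the last 2 being haem synthesis enzymes. Of 17 red cell membrane and skeleton genes 16 were higher (median 5.04), among them *Epb42*, protein 4.2 of the membrane skeleton, at 8.13. *Slc2a1*, the glucose transporter, was lower at 91.1 and 104 against 394 and 398 CPM (log2 fold change -1.72). Of 9 iron genes 7 were higher, with *Slc25a37*, the mitochondrial iron importer, at 3.14, *Steap3* at 2.87, *Ncoa4* at 1.69 and the transferrin receptor *Tfrc* at 1.27, and *Ireb2* was lower (-0.38). These genes passed edgeR's test at an adjusted p under 0.05.

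Of 20 genes known as regulators of globin genes, 12 were higher and 4 lower, beside 24.9% and 31.0% of all genes tested. The 4 lower are thus no more than the share over all genes, and the gate itself set *Gata1* and *Klf1* among the 12. *Nfe2*, a subunit of the factor NF-E2 that binds the locus control region, stood at 24.0 and 19.1 against 0.215 and 0.164 CPM (log2 fold change 7.17). *Lmo2* (4.21), *Myb* (4.15) and *Tal1* (3.99), all factors of blood progenitors, were higher too. Lower were *Bcl11a*, the repressor of embryonic and fetal globin genes in later red cells (0.248 and 0.878 against 1.38 and 3.63 CPM), its partner *Sox6* (log2 fold change -1.0), the RNA-binding protein gene *Igf2bp3* (-0.92) and *Klf3* (-0.67). In erythroid cells *Bcl11a* was at or near the CPM of 3 counts (0.248 in embryo 2 and 0.527 in embryo 3), so no fold is given. The call of *Bcl11a* was close to the threshold (edgeR adjusted p = 0.0494, and 0.0602 with another scaling, RLE), and *Sox6* passed edgeR (adjusted p = 0.0394) but not DESeq2 (adjusted p = 0.117). With scaling by library size alone the median of all genes moved by -0.32, and 2142 genes were called higher and 6762 lower, so 24.1% of calls were higher in place of 44.6%.

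The make-up of globin differed along an order of the cells by other red cell genes. Each embryo's erythroid cells were put in 5 equal bins by the share of their non-globin UMIs from haem and membrane genes, an order that uses no globin. Globin UMIs per cell rose along it from 78.1 in bin 1 to 339 in bin 5 of embryo 2 and from 20.2 to 135 in embryo 3. *Hba-x* went from 32.2% to 49.6% of globin UMIs in embryo 2 and from 13.8% to 39.9% in embryo 3. *Hbb-bh1* went from 60.7% to 43.0% and from 75.9% to 49.6%. In the last bin of embryo 2 *Hba-x* (168 UMIs per cell) was above *Hbb-bh1* (146), whereas in embryo 3 it stayed below (53.8 and 66.9). The adult genes together went from 5.21% to 5.72% in embryo 2, with intervals that overlapped (4.81 to 5.64 and 5.52 to 5.93). In embryo 3 they went from 4.27% to 8.57%.

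Ordering the cells by globin share itself, which holds *Hba-x* and *Hbb-bh1* and so in part fixes the outcome, gave the same direction for these genes between the outer bins. *Hba-x* went from 18.9% through 28.9%, 32.6% and 41.1% to 49.5% in embryo 2, and from 15.7% through 14.5%, 16.4% and 22.5% to 34.7% in embryo 3. *Hbb-bh1* fell from 67.9% to 43.8% in embryo 2, whereas in embryo 3 it was at 67.8% in bin 1, 76.3% in bin 3 and 56.3% in bin 5. The adult genes together, by contrast with the haem and membrane order, went down from 9.97% in bin 1 to 4.97% in bin 5 of embryo 2. In embryo 3 they made up 9.76% in bin 2 and 6.96% in bin 5. Bin 1 of embryo 3 held 11 adult UMIs (9.57%, 4.87 to 16.5) and 1.95 globin UMIs per cell.

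**Figure D2:**
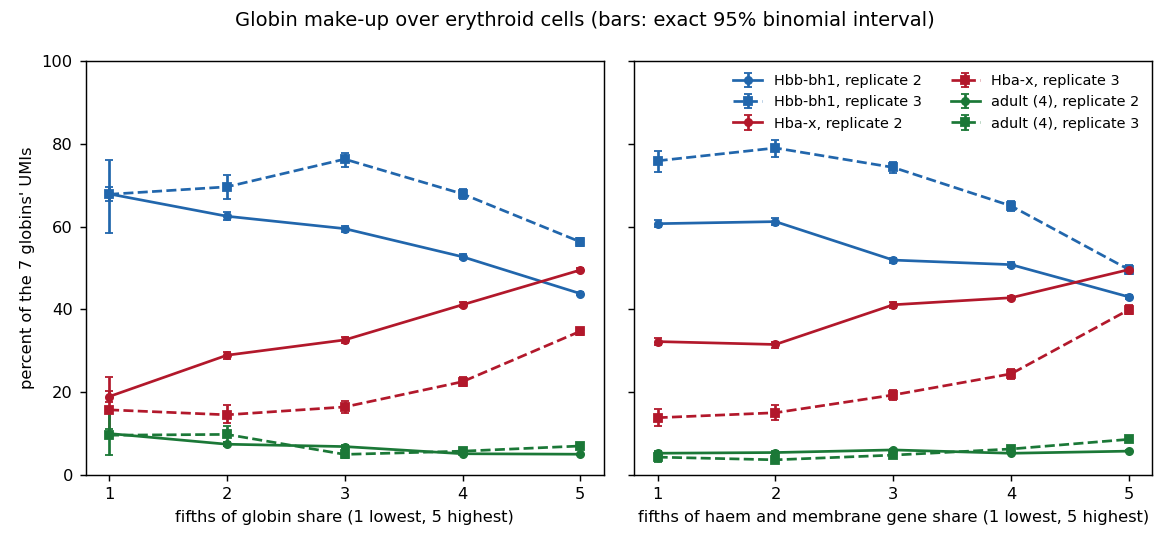
Percent of globin UMIs from *Hbb-bh1*, *Hba-x* and the 4 adult genes (y axis) in 5 bins of erythroid cells of embryos 2 and 3 (x axis), by globin share (left) and by the share of haem and membrane genes (right), with exact binomial 95% intervals. *Hba-x* ends at 49.5% and *Hbb-bh1* at 43.8% in the last bin of embryo 2 by globin share, where the lines cross, and in embryo 3 they end at 34.7% and 56.3%.

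At a matched globin share the embryos came closer than their averages. Cells with a share of 0.3% to 1% gave 32.1% *Hba-x* in embryo 2 (exact binomial 95% interval 31.6 to 32.7, 245 cells) and 26.4% in embryo 3 (25.6 to 27.2, 112 cells), against 42.8% and 28.1% over all erythroid cells. Between 1% and 3% the values were 43.8% (234 cells) and 39.0% (18 cells). *Hbb-bh1* was 50.1% and 50.6% there, with intervals of 49.7 to 50.5 and 49.2 to 51.9 that overlapped. *Hba-x* stayed lower in embryo 3 by more than counting error in each of these bins, although cells of 1 embryo are not replicates of it.

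Per cell, Spearman's rho between the *Hba-x* fraction of globin and the globin share was 0.547 over 705 cells of embryo 2 and 0.488 over 269 of embryo 3, and that of *Hbb-bh1* was -0.381 and -0.241. With the haem and membrane order it was 0.459 and 0.490 for *Hba-x* and -0.393 and -0.342 for *Hbb-bh1*. The fraction of *Hba-a1* rose with that order more in embryo 3 (0.517) than in embryo 2 (0.244), and the fraction of *Hbb-y* hardly moved (0.0560 and 0.0168). Globin share and total UMIs of a cell were unrelated, with rho of 9.63e-04 and 0.0194. The cells share their library and the fractions sum to 1, so no p is given.

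To see what else differed between cells with much and little globin, the erythroid cells of each embryo were cut in 3 equal parts by globin share and the highest part was compared with the lowest. The globins were left out of this test. Globin share was 1.29% to 6.42% in the 235 high-globin cells of embryo 2 and 0.428% to 2.76% in the 97 of embryo 3, and at most 0.470% and 0.0953% in the 236 and 98 low-globin cells. By edgeR's test 343 of 9002 genes were higher (3.81%) and 524 lower (5.82%) in the high-globin cells. The 2 parts of an embryo come from the same animal, and with the embryo as a block 1142 were higher (12.7%) and 1222 lower (13.6%).

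Many genes of the same lists were higher where globin was higher among the erythroid cells. Of the haem list 7 of 10 tested genes were called higher and none lower (median log2 fold change 1.00, against 0.00 over all genes). *Blvrb* stood at 512 and 335 CPM in high-globin and 182 and 68.1 in low-globin cells of embryos 2 and 3 (log2 fold change 1.85 ± 0.33, edgeR adjusted p = 0.0117). *Alad*, the second enzyme of haem synthesis, stood at 259 and 148 against 89.8 and 55.9 (1.61 ± 0.26, edgeR adjusted p = 0.00894). *Alas2* had a log2 fold change of 1.21 and *Ppox* of 1.45. With the embryo as a block 9 of these 10 were higher.

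Of the iron list 6 of 9 were called higher and none lower (median 0.53). *Slc25a37* stood at 157 and 111 against 52.7 and 31.6 CPM (log2 fold change 1.78 ± 0.22, edgeR adjusted p = 0.00394). *Steap3*, which reduces iron in endosomes, had 2.15, *Fth1*, a ferritin chain, 0.74 and *Tfrc* 0.70. Of 14 membrane and skeleton genes 9 were called higher, or 13 with the block, and *Slc2a1* was lower (-0.82). *Ank1*, ankyrin, stood at 32.0 and 17.7 against 10.0 and 3.41 CPM (1.92 ± 0.40, edgeR adjusted p = 0.0195), and *Rhd* had 2.07. *Add2* stood at 15 and 12.2 against 2.05 and 0 CPM and *Ermap* at 5.74 and 4.43 against 0.684 and 0. *Hbq1b*, the theta globin, was at 9.84 and 4.43 against 0.912 and 0 CPM.

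Some genes of the endothelium and of blood progenitors were lower where globin was higher. Of 11 tested genes of that list 4 were called lower, or 7 with the block, and none higher (median -1.36). *Itga2b*, which is not in that list, was called higher, at 59.0 and 60.3 against 43.5 and 27.7 CPM (log2 fold change 0.83, edgeR adjusted p = 0.0296). *Kdr*, the VEGF receptor of endothelium and early blood precursors, stood at 1.37 and 1.66 CPM in high-globin and 27.8 and 25.8 in low-globin cells (-4.02 ± 0.34, edgeR adjusted p = 9.70e-04). *Gata2*, the progenitor GATA factor, stood at 4.37 and 14.9 against 29.2 and 58.4 (-2.19 ± 0.47, edgeR adjusted p = 0.0222). *Fli1* had -1.72 and *Cdh5*, VE-cadherin, went from 15 and 9.24 to 0 and 1.11 CPM. Among genes of at least 50 CPM on average the largest falls were in *Mest* (-2.94), *Basp1* (-2.88), *Phlda2* (-2.43), *Hmga2* (-2.40) and *Vim* (-2.34). Among the largest rises were *Blvrb*, *Slc25a37*, *Alad* and *Chchd10* (1.53).

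Some regulators of globin genes were called along the same order. Of 18 tested, beside 3.81% and 5.82% of all genes, 3 were called higher, *Klf1* (0.67), *Zfpm1* (0.46) and *Gata1* (0.44), and 1 lower, *Igf2bp3* (-0.65), with a median of 0.16. With the block 6 were called higher and 2 lower, beside 12.7% and 13.6% of all genes. The lower regulators are thus no more than the share over all genes, with or without the block. *Klf1* and *Gata1* also define the gate. *Nfe2* stood at 29.5 and 24.9 against 21.4 and 14.1 CPM and did not pass (edgeR adjusted p = 0.0828), but passed with the embryo as a block (edgeR adjusted p = 0.00176). Of 14 cell division genes 1 was called higher, *Ccnb1* (0.49), or 6 higher and 1 lower with the block (median 0.17), beside the same shares of all genes.

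Doublet scores and markers of other cell types moved along the globin order as well. The 13 markers of other cell types, of which 10 to 12 were detected in a part, summed to 327, 186 and 119 CPM from low to high globin in embryo 2 and to 202, 199 and 184 in embryo 3. *Itga2b*, which went up with globin, was 1 of the 13, so the sums understate the fall of the rest. Cells in the top 6% of doublet scores were 12.3%, 9.32% and 0.851% of the 3 parts in embryo 2 and 18.4%, 8.25% and 2.06% in embryo 3. Without those cells, an alternative added after the data were seen, 90 genes were called higher and 163 lower by edgeR. The haem list then had 6 higher, the iron list 3, the membrane list 5 and the progenitor list 5 lower of 12 tested, while no regulator was called (edgeR adjusted p = 0.153 for *Klf1*, 0.228 for *Zfpm1*, 0.254 for *Gata1* and 0.158 for *Igf2bp3*), nor *Basp1*, *Slc2a1*, *Ccnb1*, *Steap3* and *Rhd* (edgeR adjusted p = 0.0638, 0.105, 0.0568, 0.0728 and 0.0551). *Itga2b* was not called without those cells either (edgeR adjusted p = 0.133). Scaling by library size alone left 97 genes higher and 746 lower, with 11.5% of calls higher in place of 39.6%. DESeq2 called 153 higher and 178 lower, among them 4 haem, 4 iron and 3 membrane genes higher and 3 progenitor genes lower. By DESeq2 *Blvrb* (adjusted p = 0.133), *Gata2* (adjusted p = 0.25) and *Itga2b* (adjusted p = 0.0654) did not pass.

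**Figure D3:**
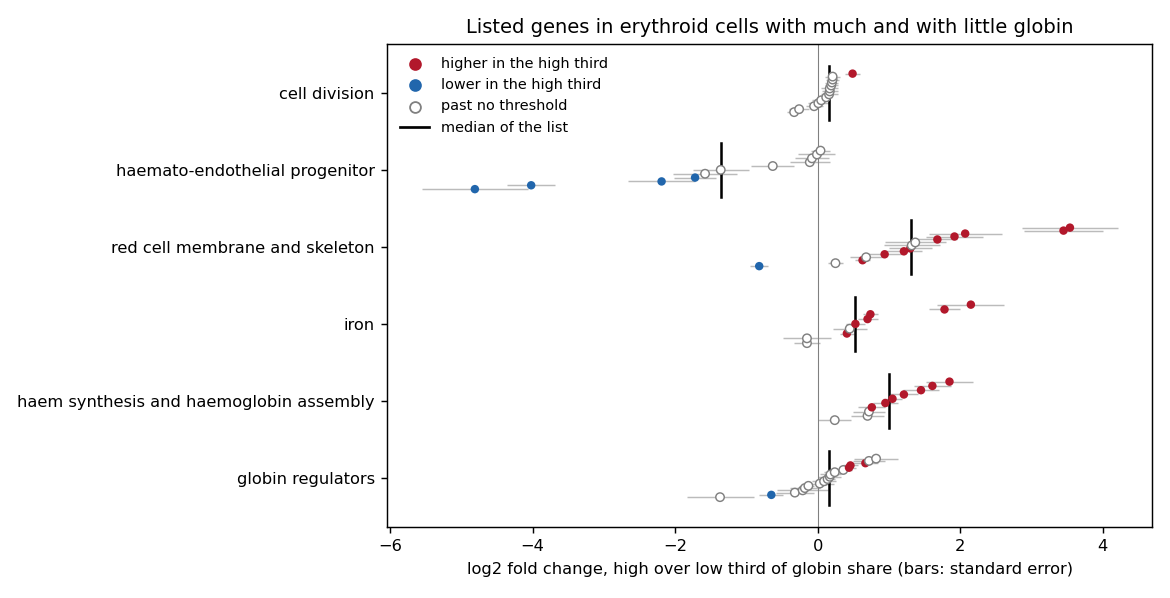
Log2 fold change of high-globin over low-globin erythroid cells (x axis) for each gene of 6 lists (y axis), with bars for the standard error, filled points for genes past edgeR's test and a line at the median of each list. Haem genes lie mostly above 0 (median 1.00) and progenitor genes mostly below it (median -1.36), while regulators of globin genes and cell division genes are spread near 0 (medians 0.16 and 0.17).

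Among the 10 genes whose share of a cell's non-globin UMIs went most closely with its globin share, by mean Spearman's rho over both embryos among 3902 genes, were *Blvrb* (0.661), *Tmem14c* (0.550), *Gpx1* (0.539), *Fth1* (0.528), *Prdx2* (0.499), *Alad* (0.473), *Slc25a37* (0.433), *Chchd10* (0.426) and *Cpox* (0.424). *Gpx1* and *Prdx2* code for enzymes that remove peroxides and *Tmem14c* for a mitochondrial porphyrin carrier. *Tmem14c* went from 615 and 425 CPM in low-globin to 1060.4 and 813 in high-globin cells, and *Prdx2* from 1667 and 1369 to 2413 and 2036. Both were chosen by rho over these same cells, which fixes the direction, so the values show size only. The lowest values were those of *Actg1* (-0.510), a cytoplasmic actin, *Serpinh1* (-0.477), a collagen chaperone, *Prtg* (-0.412), *Hmga2* (-0.401) and *Mdk* (-0.385). The median over all genes was -0.0293, that of 8 haem genes 0.285, that of 6 iron genes 0.218 and that of 12 regulators -0.0301.

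Globin UMIs were also counted in the cells with no UMI of *Gata1* or *Klf1*. In droplet data such UMIs can come from RNA free in the suspension, from cells that the gate missed and from a cell's own transcripts. Embryonic globins stood at 0 CPM in embryo 1, 55.9 in embryo 2 (exact Poisson 95% interval 54.6 to 57.3) and 6.66 in embryo 3 (6.26 to 7.08). The 6054 such cells of embryo 1 held no UMI of *Hbb-bh1*, *Hbb-y* or *Hba-x*, which allows up to 0.0156 CPM. The order of the embryos was that of their erythroid cells, 2, 707 and 292. It was also that of their extraembryonic endoderm cells (296, 1173 and 954). Median depth of the cells without either gate gene had the reverse order (26607, 14267 and 16108 UMIs). With 1 library per embryo these cannot be told apart, and the source was not tested.

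Set against the erythroid cells of the same embryo, the level over all other cells was alike in embryos 2 and 3. The embryonic globin UMIs of erythroid cells were 856 and 113 per 1000000 UMIs of all cells in embryos 2 and 3, and the level in other cells was 6.54% and 5.90% of that. By gene it was 6.52% and 6.16% for *Hbb-bh1*, 6.57% and 5.12% for *Hba-x* and 5.78% and 8.05% for *Hbb-y*. These percentages include other cells with 10 or more embryonic UMIs, without which the level was 36.2 and 5.63 CPM. The ratio of *Hbb-bh1* to *Hba-x* UMIs in the other cells was 1.16 in embryo 2 and 2.68 in embryo 3, beside 1.17 and 2.23 in the erythroid cells. As a share of *Hbb-bh1* and *Hba-x* together, *Hbb-bh1* was 53.8% in other and 54.0% in erythroid cells of embryo 2, within counting error (52.6 to 54.9 and 53.7 to 54.2). In embryo 3 it was 72.8% and 69.0%, with intervals that did not overlap (69.9 to 75.6 and 68.4 to 69.7).

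The embryonic globin UMIs were spread over the cell groups. In 9 groups gated on pairs of markers, from neuroectoderm to allantois, they stood at 28.1 to 42.3 CPM in embryo 2, 3.38 to 7.21 in embryo 3 and 0 in embryo 1. The lowest of embryo 2 was the left-right organizer gate (32 cells, interval 14.5 to 49.0) and the highest paraxial mesoderm (36.9 to 48.3). Endothelium, which shares a precursor with the first blood cells, stood at 39.4 CPM (32.3 to 47.5) in embryo 2, among the values of the other groups. Most cells held few: 3898 of 7001 cells of embryo 2 held none and 2058 held 1. In embryo 2, 30 cells with 10 or more held 2502 of the 7031 embryonic UMIs, and without cells of 10 or more globin UMIs the level was 36.2 CPM.

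**Figure D4:**
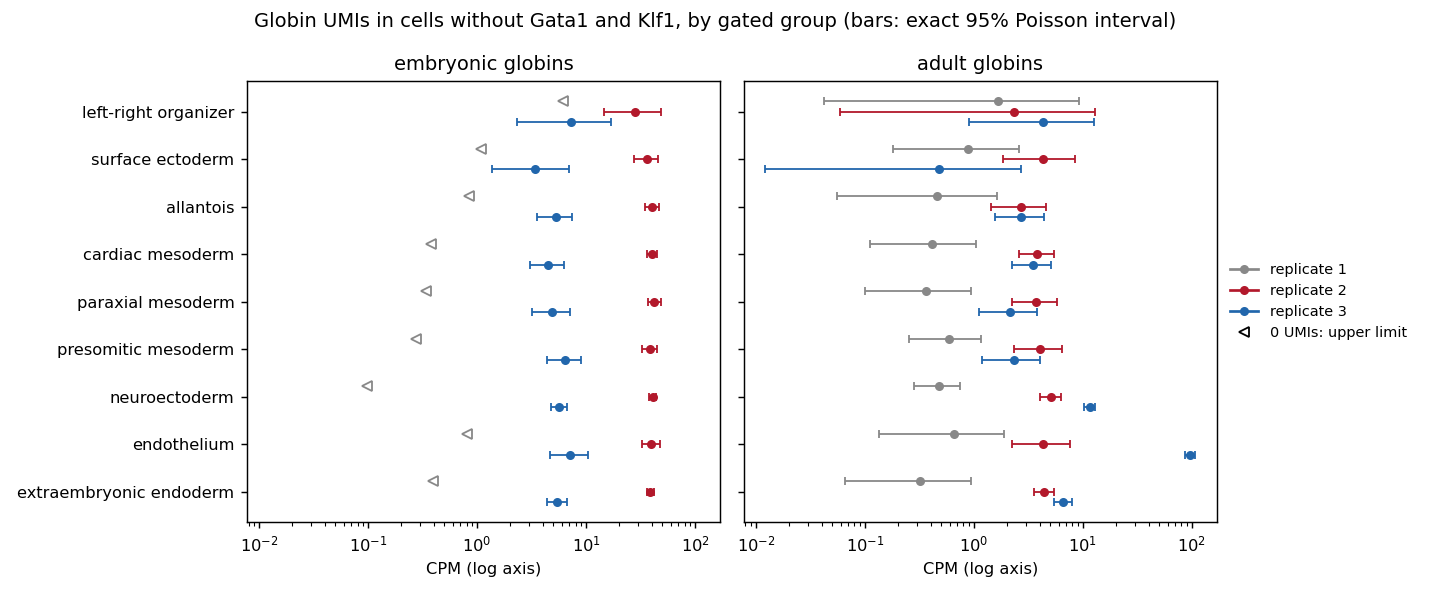
Embryonic and adult globin CPM (x axis, log) in 9 gated groups of cells without *Gata1* and *Klf1* UMIs (y axis), by embryo, with exact Poisson 95% intervals and open triangles at the upper bound of that interval where embryo 1 held 0 UMIs. The embryonic values lie between 28.1 and 42.3 in embryo 2 and between 3.38 and 7.21 in embryo 3 in every group, while the adult value of endothelium in embryo 3 stands apart at 96.1.

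The adult globins did not follow this pattern. They stood at 0.474 CPM in embryo 1 (0.381 to 0.581), 5.04 in embryo 2 (4.66 to 5.45) and 9.82 in embryo 3 (9.33 to 10.3), so embryo 3 was above embryo 2 although it had fewer erythroid cells. As a percentage of the adult globin UMIs of erythroid cells per 1000000 UMIs, the level was 10.0% in embryo 2 and 125% in embryo 3. For *Hbb-bs* it was 6.88% and 293%. The values of embryo 3 rest on 7 cells described below, whose clustering the Poisson interval does not cover. Without cells of 10 or more globin UMIs, embryo 3 was below embryo 2 (2.29 and 4.26 CPM). It was then also below its erythroid value of 7.88 per 1000000 UMIs, as was *Hbb-bs* (1.14 against 1.99). Embryo 1, with 0 adult UMIs in its 2 gated cells, held 27 UMIs of *Hba-a1*, 19 of *Hba-a2*, 41 of *Hbb-bs* and 4 of *Hbb-bt* in its other cells, at most 2 in a cell.

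In embryo 3, 7 other cells with 13 to 347 adult globin UMIs held 1139 of the 1500. They held 0 to 2 embryonic UMIs, and 0 or 1 of the 9 erythroid markers. The highest, with 217 *Hbb-bs*, 46 *Hba-a2*, 44 *Hba-a1* and 40 *Hbb-bt* UMIs among 10225, fell in the endothelium gate and set its 96.1 CPM, against 0.826 in the rest of that group. Another with 215 adult UMIs fell in the neuroectoderm gate, which stood at 11.5 CPM with it and 2.51 without. Without cells of 10 or more globin UMIs, adult globins stood at 4.26 CPM in embryo 2 and 2.29 in embryo 3.

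The split within the adult alpha pair differed between these classes of cells. *Hba-a1* was 88.5% and 89.0% of *Hba-a1* and *Hba-a2* UMIs in the erythroid cells of embryos 2 and 3 (87.6 to 89.3 and 86.7 to 90.9). In the other cells it was 83.2% in embryo 2 (79.7 to 86.3), but 58.7% in embryo 1 (43.2 to 73.0) and 57.3% in embryo 3 (52.7 to 61.8). With cells of 10 or more globin UMIs left out, it was 82.5% in embryo 2 (78.6 to 85.9) and 67.6% in embryo 3 (59.3 to 75.1). *Hbb-bs* was 76.1% and 78.6% of *Hbb-bs* and *Hbb-bt* in erythroid cells, and 91.1%, 71.8% and 87.5% in the other cells of embryos 1, 2 and 3. In the other cells under 10 globin UMIs it was 76.3% in embryo 2 (66.4 to 84.5) and 84.8% in embryo 3 (79.1 to 89.4). These shares carry the limit on near-identical pairs and were not corrected for it.

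A few barcodes outside quality control consisted mainly of adult globin. Barcodes with at least 50% of UMIs from the 7 globins numbered 6 in embryo 1, 0 in embryo 2 and 11 in embryo 3, with 520 to 1540 UMIs and 48 to 133 genes each, under the minimum of 1500 genes. Globin was 76.9% to 91.1% of their UMIs, none embryonic, and no barcode lay between 10% and 50%. They held 98.2% of all adult globin UMIs of the library of embryo 1 and 65.5% of that of embryo 3. *Hba-a1* was 56.6% of their *Hba-a1* and *Hba-a2* UMIs in embryo 1 (54.3 to 58.9).

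**Figure D5:**
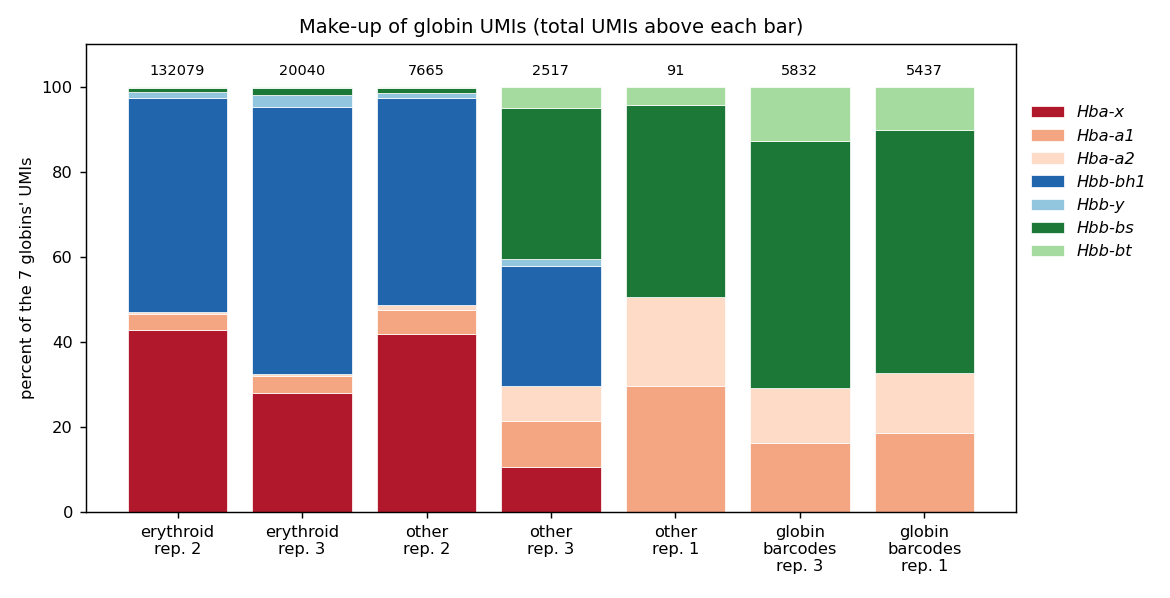
Percent of globin UMIs from each of the 7 genes (y axis, stacked) in erythroid cells, in cells without *Gata1* and *Klf1* UMIs and in barcodes of at least 50% globin, by embryo (x axis), with total UMIs above each bar. Embryonic genes are 94.4% and 93.5% in the erythroid cells of embryos 2 and 3 and 0 in the other cells of embryo 1 and in the barcodes of embryos 1 and 3.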

How the data were processed

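The authors made the UMI counts per gene and cell with Cell Ranger 3.1.0 on the mm10 genome with an added EGFP sequence and deposited them as filtered matrices without normalization. The labels give the stage as 0 to 1 or 0 to 2 somites. Totals were 207961733, 149341900 and 167503888 UMIs for replicates 1, 2 and 3. Cells with at least 1500 genes, at most 8500, 7500 and 8500 genes, and at most 10% mitochondrial UMIs were kept. Doublets stayed in, and a simulated-doublet score (Scrublet in scanpy 1.11.5) was used only for an alternative.

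The members and gene lists were chosen with earlier results of these data known. Counts were summed per embryo and class of cells and tested in edgeR 4.0.16 (R 4.3.3; quasi-likelihood test, TMM scaling, filter on low counts, adjusted p under 0.05), with 2 sums against 2. The test was run on simulated counts of a common dispersion and without the pairing of the data. Of its calls there, 2.05% were false for erythroid against other cells and 7.22%, above the threshold, for high against low globin. It recovered 59.2% and 70.8% of log2 fold changes of 1. Embryo 1 was left out of the tests. Both sums of an embryo come from the same animal, which pairs them (correlation of deviations 0.347 over 15671 and 0.268 over 9002 genes). CPM are counts per 1000000 UMIs of the class. Exact Poisson and binomial intervals are at 95%, and a count of 0 was read as up to 3 counts. Named genes were the members, up to 4 genes with the largest called change in each list, the 5 largest changes each way at 50 CPM or more, and the 10 highest and 5 lowest by rho. *Nfe2*, *Slc2a1*, *Ireb2* and the lower regulators were named after their values were seen, as were *Mb*, *Ngb* and *Hbq1a*. *Ahsp* was the 1 listed gene not found. Alternatives were DESeq2 1.42.0, other scalings, filters and gates, thinning, the block and leaving out an embryo. One listed gene, and an alternative gate that used it, are not reported here.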

Additional observations from a re-analysis of the deposited data

Results flagged for a closer look

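Adult globin UMIs outside the cells that passed quality control were the signal singled out, since no comparison used those barcodes. In embryo 1 the 6 barcodes with at least 50% globin held 5437 adult globin UMIs and in embryo 3 the 11 such barcodes held 5832, while embryo 2 had none. No control library exists for this measure. The limit of 50% was set after the data were seen. It selects for globin, so a high globin count in these barcodes was fixed by the choice. Their *Hba-a1* share of *Hba-a1* and *Hba-a2* was 56.6% and 55.5%, and their *Hbb-bs* share of *Hbb-bs* and *Hbb-bt* was 84.9% and 81.8%, in embryos 1 and 3. The other cells of the same embryos gave 58.7% and 57.3%, and 91.1% and 87.5%. With cells of 10 or more globin UMIs left out, the other cells of embryo 3 gave 67.6% (exact binomial 95% interval 59.3 to 75.1) and 84.8% (79.1 to 89.4). That 67.6% was above the 55.5% of the barcodes (53.1 to 57.9) by more than counting error. The source of these barcodes was not tested.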

How the results depend on the processing

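Of the values and counts that answer a comparison, 94 stayed within their limits under an alternative and 18 moved. For numbers of genes the limit was a set factor of the main count. For values it was the standard deviation between the embryos' main values, which is wide where the embryos differ much. A change of direction was not scored for these results. With scaling by library size alone, 2142 genes were higher in erythroid than in other cells. Between high-globin and low-globin cells that scaling called 97 genes higher, DESeq2 153 higher and 178 lower, no filter on low counts 634 and 973, a gate of at least 2 UMIs of each gate gene 227 and 283, and, added after the data were seen, leaving out the top 6% of doublet scores 90 and 163. The causes were not tested. With the embryo as a replicate block 1142 were higher and 1222 lower, and the block changed the call of 1 gene whose test is described, *Nfe2*, which then passed, and of no other. DESeq2 lost the calls of 10 genes named in that comparison. Without replicate 2 or replicate 3 there is 1 sum on each side and no test, so fold changes alone were computed. Thinning each cell to 5000 UMIs, fewer by construction, gave 56.7 globin UMIs per erythroid cell in embryo 2. In other cells the median over cells was 0 CPM for embryonic and adult globins of embryo 2 and adult globins of embryo 3. Adult globins of embryo 3 stood at 2.08 CPM without the 1% of cells highest in globin share and at 2.29 CPM without cells of 10 or more globin UMIs, added after the data were seen. The number of embryos with erythroid cells, 2, limits every test. The embryos carry C57BL/6 and 129 alleles, whereas reads were assigned to the mm10 sequence, and the effect of allele differences in the adult beta genes was not tested.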

Other observations

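Cells with a UMI of 1 of the gate genes also held globin. In embryo 2 the 218 cells with *Gata1* alone held 8.76% of the globin UMIs of all cells after quality control and the 190 with *Klf1* alone 9.68%, beside 77.1% in the cells with both. In embryo 3 the 207 and 90 such cells held 10.1% and 3.40%, beside 76.9%. Median globin UMIs were 4 and 3 in these classes of embryo 2 and 0 in those of embryo 3, against 127 and 39 in the cells with both. A globin share of at least 0.1% was found in 40.8% and 44.7% of the cells with *Gata1* or *Klf1* alone in embryo 2, and in 16.4% and 13.3% in embryo 3. In embryo 1, where 29 and 44 cells had 1 of the genes, they held 2 and 0 globin UMIs.

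Cells with at least 5 *Hbb-bt* UMIs, a limit chosen after the values were seen, numbered 17 in embryo 2 and 2 in embryo 3. The 17 cells held 10.7 *Hbb-bt* UMIs each, against 0.342 in the other cells of embryo 2, a direction that the cut fixes. They held 6.24 *Hbb-bs* UMIs each, against 1.78. A single cell of the 17 held 45 *Hbb-bs* UMIs and weighs much in that mean, and the split between the near-identical *Hbb-bs* and *Hbb-bt* is uncertain. Their *Hbb-y* level was 0.824 UMIs per cell, against 2.80. Of these cells 17.6% were in the top 6% of doublet scores, against 7.25% of the rest, and the part of doublets in the result was not tested.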
